A study of Homo sapiens with 8 samples.

Results

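Tandem poly(A) sites are several cleavage sites that follow each other in the last exon of 1 gene, and they were examined here in poly(A) 3′-seq peaks from neuroblastoma cells. The members were chosen by peak position: 2 or more peaks of the deposited list had to overlap the last exon of a protein-coding gene, extended by 600 bp downstream, with no gene on the other strand in that window. Of 153624 peaks, 13036 (8.49%) met this rule, in 4708 genes. Because peak calls decided which genes entered, the number of sites in a gene and the height of its peaks are given below as descriptions, with no test, and tests are kept for genome sequence around the peaks, which the rule did not read. The window was placed by the annotated last exon, however, so the last site often was an annotated transcript end. Within 50 bp of such an end lay 72.8% of the last (distal) and 20.5% of the first (proximal) sites.

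The reads came from 2 human neuroblastoma lines: Kelly, in which MYCN is amplified, and its derivative Kelly E9R, in which the CDK12 cysteine that THZ531 binds is mutated. THZ531 is a covalent inhibitor of the transcription kinases CDK12 and CDK13. Each line was treated for 6 h with DMSO or, per the labels, with 400 nM THZ531 (the study's methods name another dose for these lines), as biological duplicates, which gives 4 groups of 2 libraries: Kelly with DMSO, Kelly with THZ531, Kelly E9R with DMSO and Kelly E9R with THZ531. Kelly E9R is 1 line, whose mutation arose spontaneously under exposure to another CDK12 inhibitor, so the mutation and other changes of that line cannot be told apart. The 8 libraries were merged before peaks were called, and the list has 0 columns per library, so every value below describes all 4 groups together and the effect of THZ531 on these sites was not analysed.

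A poly(A) site is defined in the nascent RNA by short motifs. The hexamer AAUAAA or a close variant upstream of the cut is read by CPSF, UGUA motifs further upstream are read by the cleavage factor CFIm, and GU-rich sequence after the cut is read by CstF. Where a last exon has several such sites, the choice between them sets the length of the 3′ UTR, and so which binding sites for microRNAs and RNA-binding proteins the transcript carries, without a change to the encoded protein. Neurons are known for long 3′ UTRs, and proliferating cells for short ones.

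The signals by which tandem sites of the same gene differed are counted further below. UGUA and GU-rich motifs were counted outside the bases printed here. The sequences below are shown as examples of the hexamer at both ends of a gene, and not of the difference between the ends. Each gives the last 30 bases of the transcript strand up to the 3′ end of the peak (GRCh38), with AATAAA or ATTAAA in capitals, for the distal site and the most proximal site whose hexamer starts within these 30 bases, in genes in which both ends had the hexamer at its usual distance and no A-rich sequence after it. In SMAD2 site 6 of 6 another AATAAA, left in lower case, lies just before the marked match.
CYCS site 2 of 4, chr7:25122825-25122989, reverse strand: ataATTAAAaagaaaaccacagatcatgac
CYCS site 4 of 4, chr7:25118660-25118887, reverse strand: ttagtgtgtatcAATAAAcagcccgtggac
HNRNPU site 1 of 4, chr1:244854413-244854513, reverse strand: AATAAAacgaactgatacatatttctccaa
HNRNPU site 4 of 4, chr1:244851166-244851475, reverse strand: ggatatAATAAAtggatgttttacaaagtg
SMAD2 site 1 of 6, chr18:47841599-47841780, reverse strand: actctcccATTAAAgaggaagagaagattt
SMAD2 site 6 of 6, chr18:47808954-47809059, reverse strand: gtaataaagAATAAAggtggaaatgaagca
GPI site 1 of 5, chr19:34399954-34400055, forward strand: gagtccAATAAActcgtgctcatctgcagc
GPI site 5 of 5, chr19:34402310-34402415, forward strand: ttcAATAAAtctgtgcttttgttccttctt
SPPL3 site 1 of 4, chr12:120764271-120764566, reverse strand: tatgAATAAAcaaaaatgaaatcctgctaa
SPPL3 site 4 of 4, chr12:120762516-120762706, reverse strand: tcataagaaaATTAAAttccagacagaagg
SMARCC1 site 1 of 5, chr3:47587594-47587916, reverse strand: aaatttgtgaaaATTAAAcgagatgtggaa
SMARCC1 site 5 of 5, chr3:47585346-47585537, reverse strand: tctAATAAAgagagccaaagccagctgggt

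Other members had neither hexamer and ended at a run of A in the genome, and the next pairs show this kind for contrast. For each, the 30 bases before and the 30 bases after the 3′ end of the peak are given, with runs of 6 or more A after the end in capitals.
ARIH1 site 5 of 10, chr15:72591124-72591232, forward strand, before: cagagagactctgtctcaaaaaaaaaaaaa
ARIH1 site 5 of 10, after: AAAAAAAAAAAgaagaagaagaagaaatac
SLITRK5 site 6 of 8, chr13:87692698-87692805, forward strand, before: gggtgagggagtgagactctaaaaaaaaaa
SLITRK5 site 6 of 8, after: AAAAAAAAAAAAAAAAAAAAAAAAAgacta
An oligo(dT) primer can bind such a genomic A run inside a transcript as well as a poly(A) tail. A peak of this kind and a cleavage site cannot be told apart from the list.

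The label of these peaks as 3′ UTR sites held for most of them. Of 13107 pairs of a peak and a gene, 77.5% ended in the annotated 3′ UTR, 19.7% after the end of the last exon and 2.88% (95% Wilson interval 2.60 to 3.18%) in its coding part. The number of pairs is larger than that of peaks because 29 peaks lay in 2 windows and 3 peaks in more, the latter in clustered protocadherin alpha genes, 15 of which share 1 last exon. Of all pairs, 37.5% ended within 50 bp of an annotated transcript end of their gene.

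The list as a whole fitted the cell type named in the labels. All 12 adrenergic neuroblastoma markers examined had a terminal peak, with pileups (reads counted at the summit by the peak caller, which may leave out duplicates) of 29 in CHGB to 121 in PHOX2A. PHOX2A and HAND2 have a gene on the other strand in the window. The list has no strand, so their peaks cannot be assigned to these genes. Among the other markers the highest pileup was 96, in MYCN. Of 7 fibroblast and Schwann cell markers, 3 had one, among them COL1A1 and COL3A1 at pileups of 16 and 7, and none of 3 blood cell markers did. Depth per library is unknown, since the list holds no count per library.

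More than 1 site was common among genes with a terminal peak. Of 8491 genes with at least 1 such peak, 55.4% (95% Wilson interval 54.4 to 56.5%) had 2 or more. The genes with tandem sites had 2 sites in 2451 cases, 3 in 1329, 4 in 592, 5 in 223 and 6 or more in 113. CHST12, which encodes a chondroitin sulfotransferase, had the most with 11, followed by ARIH1 and ZNF704 with 10 each and by ZBTB20 and ZNF431 with 9. CAMK4, a calcium-dependent kinase, and HIF1AN, the hydroxylase that restrains HIF1A, are named of 7 genes with 8 sites, by the order of their symbols.

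Genes with more sites had longer last exons. The median length was 841 bp for genes with a single terminal peak, just outside the rule, and 1859 bp for genes with exactly 2, just inside it. It went on to 2909 bp with 3 sites, 4162.5 bp with 4, 5255 bp with 5 and 8180 bp with 6 or more. Per kb of the window searched, which is the last exon with its extension, the medians had no such order, with 0.694 peaks in genes with a single peak, 0.813 with 2, 0.855 with 3, 0.840 with 4, 0.854 with 5 and 0.730 with 6 or more. At the other limit of the rule, 87 members began in the last 100 bp of the window, with a median pileup of 15 and a hexamer in 39.1%. Just beyond it, 40 peaks began in the next 100 bp after the same genes, with a median pileup of 17 and a hexamer in 24 of them.

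**Figure D1:**
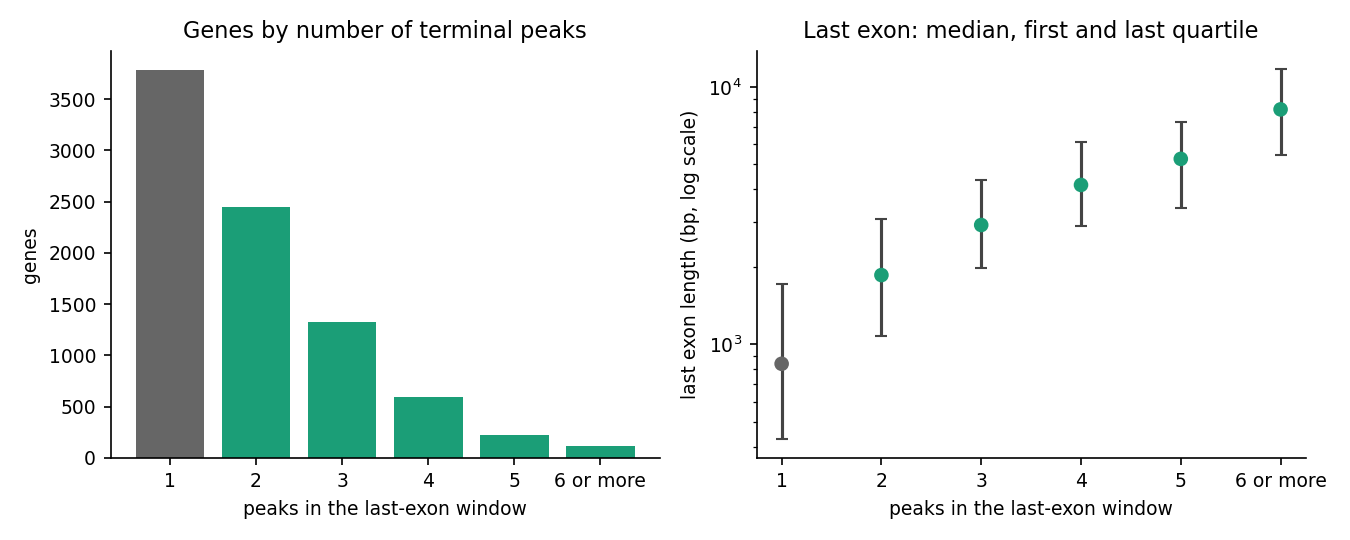
Genes by the number of peaks in the last-exon window (left, bars, number of genes) and the length of their last exon (right, points are medians, bars run from the first to the last quartile, log scale in bp). Grey marks genes with a single terminal peak and green the genes with tandem sites. The median length goes from 841 bp at 1 peak to 8180 bp at 6 or more.

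The choice between the first and the last site would change the 3′ UTR several-fold in most genes. In 4143 genes the last coding base lay in the same exon and the proximal site came after it. There the 3′ UTR, counted from the last coding base and so with the stop codon, had a median of 416 bp at the proximal site and 2169 bp at the distal site. The ratio within a gene had a median of 4.59 (quartiles 2.31 and 10.1), was above 2 in 81.3% of genes and above 10 in 25.3%. In 340 further genes the proximal peak ended in the coding part, where cleavage would leave no stop codon in that exon, and in 225 the last coding base lay in another exon.

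Neighbouring sites lay a median of 792 bp apart (quartiles 458 and 1516, n = 8399 pairs of neighbours). The shortest distance was 197 bp, and 8 pairs were within 200 bp. Cleavage sites closer than this shortest distance are not resolved in the list, for which reads were extended to 100 bp before peaks were called. At the far end, 729 pairs (8.68%) were over 3000 bp apart, and the longest gap was 12552 bp.

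**Figure D2:**
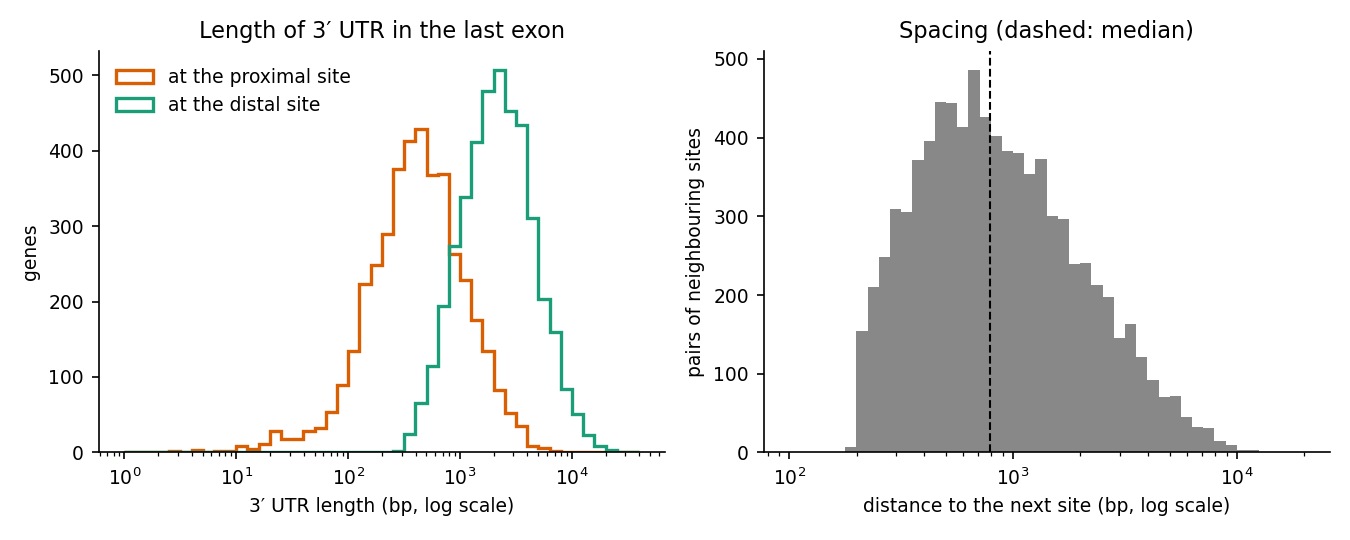
Length of the 3′ UTR at the proximal (orange) and the distal (green) site for the 4143 genes with the stop codon in the same exon (left), and distance between neighbouring sites (right, dashed line at the median of 792 bp). Both horizontal axes are logarithmic, in bp, and the vertical axes count genes and pairs of neighbours.

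The first and the last site lay a median of 1470 bp apart, and over 10 kb apart in 79 genes. SMAD2, a signal transducer of the TGF-beta pathway, spanned 32645 bp from its first to its last site. ZBTB20, a zinc finger repressor, spanned 24128 bp, and RPS6KA5, which encodes the kinase MSK1, spanned 23644 bp. ARIH1, CNKSR3, SLITRK5, ZNF445 and DNAJC10 spanned between 16716 and 19839 bp. In SMAD2 the 6 pileups were 31, 32, 25, 32, 9 and 9 in order of transcription, and the last site ended 3 bp from an annotated end. In ZBTB20 8 of the 9 sites were followed by A-rich sequence and only the most distal, 2 bp from an annotated end, had a hexamer and no A-rich sequence. In RPS6KA5, with pileups of 11, 8, 5, 7, 11 and 10, the most distal site also had a hexamer without A-rich sequence, 1 bp from an annotated end.

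Distal sites had the canonical poly(A) signal far more often than proximal sites of the same genes. AATAAA or ATTAAA occurred in the last 50 bp of 75.6% of distal and 42.1% of proximal peaks, a difference of 33.4 percentage points (95% interval 31.6 to 35.3, n = 4708 genes). In 2065 genes the distal site alone had it and in 491 the proximal site alone (exact McNemar test, two-sided, Benjamini-Hochberg adjusted over 4 features, p = 9.65e-228). The difference was 16.6 points with any of 12 hexamers in 100 bp, and 20.1 points among peaks that have one of these and no A-rich sequence. Sites between these ends, called internal here, had it in 49.0%. Genes stand for sites in this test and are not replicates of the experiment, so that it compares places in the last exon and not libraries or treatments. Distal sites were also annotated transcript ends more often than proximal sites, so over all genes the test does not separate place from annotation.

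The other signals also differed between the ends of the same genes. TGTA, the DNA letters of the CFIm motif, occurred 100 to 31 bp before 54.2% of distal and 39.0% of proximal ends, 15.2 points more often (13.2 to 17.2, exact McNemar test, adjusted p = 8.58e-50). TGTG, a GU-rich motif, occurred in the 40 bp after 30.9% of distal and 24.2% of proximal ends, 6.65 points more often (4.85 to 8.45, exact McNemar test, adjusted p = 6.26e-13). A-rich sequence, meaning 6 A in a row or 7 A among 10 bases in the 50 bp after the end, was rarer at distal than at proximal sites, with 17.2% against 34.2%, a difference of -16.9 points (-18.6 to -15.3, exact McNemar test, adjusted p = 4.67e-81). With the study's own definition, a stretch of 25 A with up to 3 mismatches, the shares were 0.595% and 0.807%, and their difference did not pass the test (adjusted p = 0.268).

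Genes with a single terminal peak gave a reference for these shares. Distal tandem sites and single sites differed in the hexamer by 1.38 points (95% Newcombe interval -0.475 to 3.24), with 74.2% in single sites. Distal sites had TGTA 13.4 points more often than single sites (11.3 to 15.5) and were A-rich 5.43 points more often (3.93 to 6.92). For proximal minus single sites the difference in the hexamer was -32.1 points (-34.0 to -30.05), and proximal sites were A-rich 22.4 points more often (20.7 to 24.1). For TGTA the difference between proximal and single sites was -1.79 points (-3.88 to 0.309). TGTG was rarer at both ends than at single sites, by -3.48 points at distal (-5.49 to -1.48) and -10.1 points at proximal sites (-12.1 to -8.18). These intervals cover counting error over sites only.

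The same features were also counted in a mirror-image window, in which the other strand is read from the other edge of the same peak. There the hexamer was found in 8.84% of proximal, 10.2% of internal and 12.5% of distal peaks, so that each class lay above its own mirror share, proximal sites included. A-rich sequence in the mirror window was found for 24.4% of proximal, 31.5% of internal and 33.2% of distal peaks. Proximal and internal sites thus lay above their mirror share and distal sites below it.

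**Figure D3:**
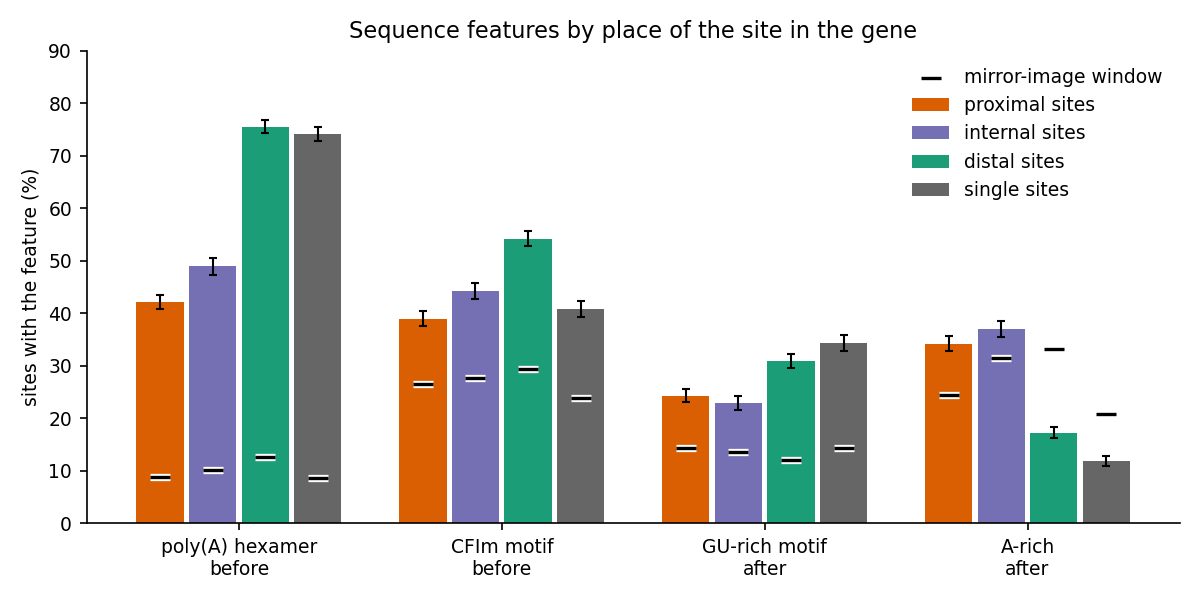
Percentage of sites with each sequence feature, for proximal, internal and distal tandem sites and for single terminal sites. Error bars are 95% Wilson intervals and short black lines give the share in mirror-image windows. The hexamer bar is 42.1% at proximal and 75.6% at distal sites, while the A-rich bar is 34.2% and 17.2%.

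The hexamer was also concentrated at 1 distance. AATAAA began 20 to 24 bp before the 3′ end in 23.6 of 100 distal sites, 22.3 of 100 single sites, 11.9 of 100 internal sites and 9.32 of 100 proximal sites. Proximal and internal sites thus had the maximum in the same 5 bp bin as distal sites, at a lower height. Among the other hexamers known to act as weak signals, AGTAAA and TATAAA were the most frequent best match at proximal sites, with 3.82% and 4.14%, and none of the 12 hexamers was found within 50 bp in 33.4% of proximal and 11.3% of distal sites.

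**Figure D4:**
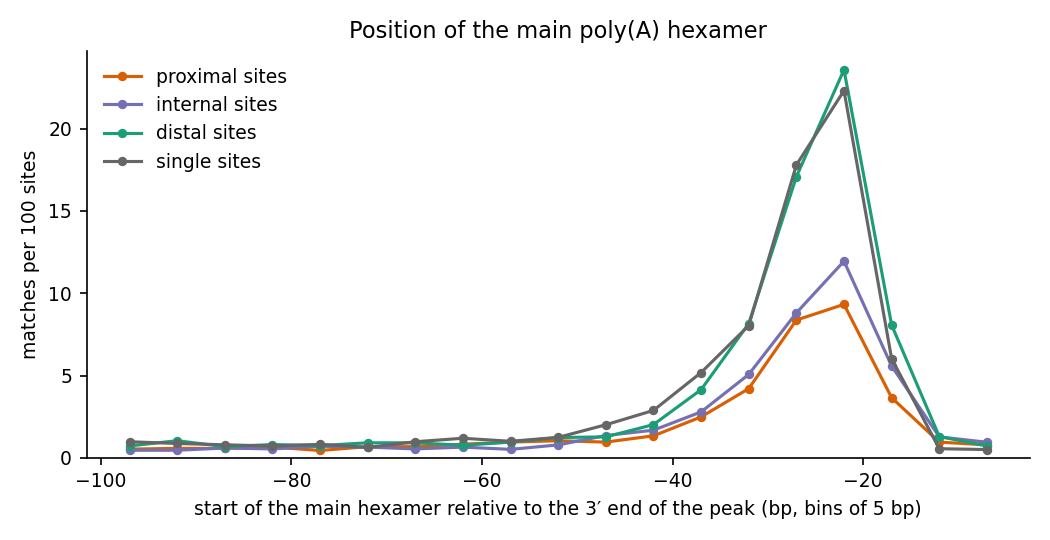
Matches to the main poly(A) hexamer per 100 sites, in bins of 5 bp by the distance of its start from the 3′ end of the peak. The 4 lines are proximal, internal, distal and single sites, and each is highest in the bin 20 to 24 bp before the end, at 9.32, 11.9, 23.6 and 22.3.

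Whether a transcript end was annotated there moved with these shares. Proximal sites within 50 bp of an annotated end made up 20.5% of proximal sites, and distal ones 72.8% of distal sites. The hexamer was present in 57.9% of annotated and 38.1% of unannotated proximal sites, and in 86.5% of annotated and 46.3% of unannotated distal sites. In 602 genes with both ends annotated, the difference between distal and proximal was 33.2 points for the hexamer, 21.9 for TGTA, 9.63 for TGTG and -17.6 for A-rich sequence, so that it was as large there as over all genes. Among unannotated sites, not paired by gene, TGTA was found at 38.9% of proximal and 40.5% of distal sites. TGTG was found at 23.04% and 21.4% of them, and A-rich sequence at 36.1% and 28.7%. For TGTA and TGTG the 95% intervals of these shares overlapped, so no difference between the ends was resolved among unannotated sites. Proximal peaks that ended in the coding part were A-rich in 78.5% of cases and had the hexamer in 12.4%.

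Sites were then sorted by these features. A hexamer starting 40 to 10 bp before the end without A-rich sequence after it, called a canonical site here, was found at 63.8% of distal, 36.2% of internal and 31.1% of proximal sites. Over all 13107 pairs of a peak and a gene the share was 44.3%. A-rich sequence without a hexamer was found at 25.1% of proximal, 26.0% of internal and 7.05% of distal sites. By gene, 1573 genes (33.4%) had 2 or more canonical sites, 2277 had 1 and 858 (18.2%) had 0. The first and the last site were both canonical in 910 genes (19.3%). In the 858 of them with the stop codon before both sites in the same exon, the ratio of the 3′ UTR lengths had a median of 4.09.

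The share of canonical sites was lower in genes with many sites and higher far from the stop codon. It was 49.0% in genes with 2 sites, 43.5% with 3, 42.1% with 4, 39.0% with 5 and 31.7% with 6 or more, while A-rich sites without a hexamer went from 14.2% to 28.6%. By distance, 33.1% of sites in the 250 bp after the last coding base were canonical, 47.8% between 1000 and 2000 bp, 57.5% between 4000 and 8000 bp and 49.0% beyond. In the 13 genes with 8 or more sites, 27 of 114 sites were canonical and 35 were A-rich without a hexamer. HIF1AN had 1 canonical site among 8, CAMK4 1 among 8, ZNF431 3 among 9 and SLITRK5 4 among 8.

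Peak height differed little between the ends. The median pileup was 17 at proximal, 17 at internal and 18 at distal sites, and 18 at single sites, with a range over the members of 3 to 100. The median fold over the local background was 7.95, 6.97, 8.75 and 10.8 in the same order, and the median background itself was 1.15, 1.51, 1.10 and 0.620 reads. No member exceeded a pileup of 100, while 9 peaks elsewhere on the main chromosomes did. By default MACS2 keeps 1 read per position and strand. With reads extended to 100 bp, that setting would allow at most 200 reads at a summit, and the highest pileup of the whole list was 200. If the default was used, which is not stated, pileup counts distinct positions within 100 bp and not the use of a site. Pileups are therefore given as heights in the merged list only.

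The distal peak was the highest of its gene in 43.1% of genes (95% Wilson interval 41.7 to 44.5%), the proximal in 35.5%, an internal one in 16.8%, and 2 or more shared the maximum in 4.69%. The log2 ratio of distal to proximal pileup had a median of 0.11 (quartiles -0.54 and 0.71), with the distal peak higher in 2460 genes and lower in 2069. The ratio was 2-fold or more towards the distal site in 781 genes and towards the proximal site in 596. In the 910 genes whose ends were both canonical the median was 0, with 416 genes higher at the distal and 449 at the proximal site. The distal peak was thus the higher one more often over all genes but not in these 910, and the difference between the 2 sets was not tested.

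Genes with exactly 2 sites, both canonical, gave the clearest unequal pairs. RCL1, which acts in ribosomal RNA processing, had pileups of 16 at the proximal and 69 at the distal site, 161 and 803 bp after the last coding base. TCTN3, a ciliary transition zone protein, had 9 and 43, and BRPF3, a scaffold of histone acetyltransferase complexes, had 7 and 29. TMEM267 with 7 and 33 and NIN, which encodes the centrosomal protein ninein, with 7 and 29 completed the 5 highest ratios, which ran from 4.14 to 4.78. In the opposite direction, ITGB5, the integrin beta 5 subunit, had pileups of 54 and 11, MRPL32, a mitochondrial ribosomal protein, 42 and 9, and SULT1A1, a sulfotransferase, 34 and 7. PRIM2, a primase subunit, had 24 and 5. These pairs were picked for their ratio, which is a description of the merged list without a replicate check.

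Among the genes named for their summed pileup, all with canonical first and last sites, CYCS, which encodes cytochrome c, ranked first. Its 4 pileups were 68, 70, 20 and 23, at 613, 879, 1259 and 5044 bp after the last coding base. The high pair thus lay in the first kb, about 4 kb before the distal site, and the site between that pair and the last was A-rich without a hexamer. SPPL3, an intramembrane protease, had the same order, with 64 at 731 bp and 27, 21 and 23 after it.

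Other genes of this set were highest elsewhere. SMARCC1, a core subunit of the BAF chromatin remodeling complex, had 59 at the fourth of 5 sites and between 15 and 28 at the others. UBE2K, a ubiquitin-conjugating enzyme, had 53 at the distal site against 37, 27 and 23 before it, with a 3′ UTR of 201 bp at the proximal and 4356 bp at the distal site. HNRNPU, a nuclear RNA-binding protein, had 35, 33, 54 and 42, and its proximal site lay 40 bp after the last coding base. SYNCRIP, a cytoplasmic and nuclear RNA-binding protein, had 31, 35, 29 and 37, so its 4 sites were close in height, the ends at 312 and 4566 bp. GPI, the glycolytic enzyme glucose-6-phosphate isomerase, had 63 at the second of 5 sites, which had no hexamer at the usual distance and no A-rich sequence, and 21 at the distal site. GRK3, a kinase of G protein-coupled receptors, had 36, 32, 19, 18 and 29. In RBM12, an RNA-binding protein whose coding sequence lies in its last exon, 2 of the 6 peaks ended in the coding part, with pileups of 25 and 19, while the others had 34, 26, 32 and 21.

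**Figure D5:**
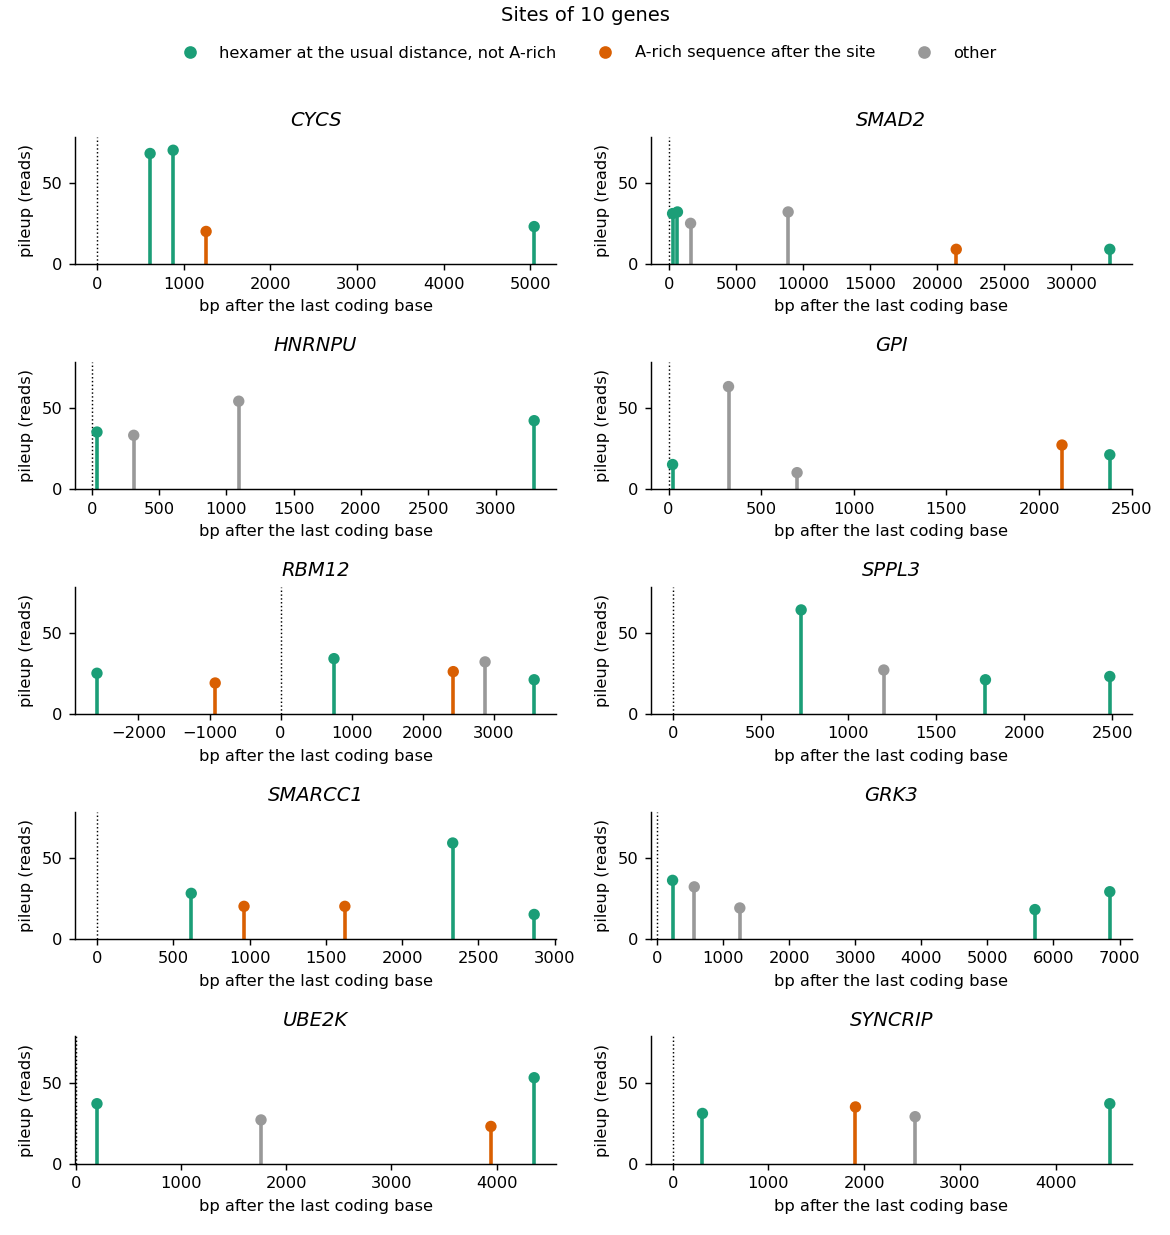
Pileup in reads (vertical axis, the same scale in all panels) against the distance of the 3′ end of each peak from the last coding base (horizontal axis, bp, its own scale per panel) for 10 genes. Green sites have a hexamer at its usual distance and no A-rich sequence, orange sites are A-rich, grey sites are the others, and the dotted line is the last coding base. CYCS is highest at 70 near the stop codon and UBE2K at 53 at its distal site.

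Genes known for alternative 3′ UTRs were examined as fixed lists. All 7 genes of the list of CFIm25 targets (CFIm25 is the CFIm subunit that binds UGUA) with a terminal peak and no opposite-strand gene had tandem sites, beside a background of 55.4%. The rule itself fixes such counts, so they are not evidence on the lists. VMA21, an assembly factor of the vacuolar ATPase, had pileups of 29 and 33 at 108 and 4418 bp. The kinase gene GSK3B had 26, 15, 25 and 18 from 327 to 5469 bp. In PAK1, PAK2, FHL1 and DICER1 the pileups ran from 16 to 33. Over the 21 sites of this list, 10 were canonical (47.6%), beside 44.3% over all pairs of a peak and a gene.

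The list of genes with short and long 3′ UTRs in proliferating cells had tandem sites in 6 of 6 genes with a terminal peak, beside the background of 55.4%. IGF2BP1, an mRNA-binding protein and a known let-7 target, had 7 sites with pileups of 29, 35, 43, 24, 41, 25 and 34, from 480 to 6698 bp. Its 2 most distal sites were canonical. CDC6, which loads the replicative helicase, had 40, 44, 14 and 29, and E2F3, a cell cycle transcription factor, had 15, 20 and 31 towards its distal site. RAB10 had 39, 19 and 38, and LAMC1, a laminin chain, had 35, 20 and 32, so that in both the ends were close in height.

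Among neuronal genes with several 3′ UTR lengths, 5 of 7 with a terminal peak had tandem sites, beside the background of 55.4%. MAPT, which encodes tau, had 50 at 288 bp and 23 at 4194 bp. APP, the amyloid precursor, went the other way, with 18 at 591 bp and 56 at 1128 bp. RAC1, a small GTPase, had 48 at both of its sites. ELAVL2, a neuronal RNA-binding protein, had 14, 23, 13 and 27, of which only the most distal was canonical, and the 2 sites of ELAVL4, with 34 and 21, were both A-rich without a hexamer.

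Of 8 microRNA pathway genes with a terminal peak, 7 had tandem sites, beside the background of 55.4%. AGO3, an Argonaute protein, had 28, 9, 14, 16, 6 and 11 from 503 to 16293 bp, and its 4 distal sites were canonical. AGO4 had 9, 12, 23 and 13. TNRC6B, a partner of Argonaute, had 36, 28, 21 and 24, of which only the last, 1 bp from an annotated end, was canonical and the others were A-rich. DROSHA, the nuclear microRNA processing enzyme, had 30 and 11.

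Of 25 ubiquitin-conjugating enzyme genes with a terminal peak, 21 had tandem sites (84.0%), as had 19 of 26 RAB GTPase genes (73.1%) and 1 of 1 calmodulin gene. The background was 55.4%, and these counts too are fixed by the rule and are not evidence on the lists. CALM2 had 15 and 58, the latter at an A-rich site. UBE2D1 and UBE2A, each with 2 canonical sites, had 21 and 19 and 19 and 27, while UBE2B had 42, 19 and 16. All 3 sites of RAB7A, a late endosome GTPase, were canonical, with 31, 30 and 31, and so were those of RAB8B with 22, 9 and 21. In RAB3B, a synaptic vesicle GTPase, 4 of 5 sites were A-rich and the pileups ran from 8 to 23. Over these lists the sites called canonical were 25 of 65 (38.5%) for the ubiquitin-conjugating enzymes and 25 of 55 (45.5%) for the RAB genes. Over all pairs of a peak and a gene the share was 44.3%.

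The sequence between the proximal and the distal site is carried only by transcripts cut at a later site. In 4143 genes it summed to 9167 kb, against 2602 kb in the part before the proximal site, and motifs for regulators were counted in both. The microRNAs searched are shown with the seed, bases 2 to 8, in capitals (RefSeq, GRCh38.p14), because the matches counted are the reverse complements of these seeds.
hsa-let-7a-5p: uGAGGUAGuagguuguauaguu
hsa-miR-17-5p: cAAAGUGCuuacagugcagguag
hsa-miR-9-5p: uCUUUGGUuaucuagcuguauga
hsa-miR-34a-5p: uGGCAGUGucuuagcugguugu
Let-7 is a repressor of LIN28B and MYCN, miR-17 belongs to a cluster driven by MYC proteins, miR-9 is abundant in neurons, and miR-34a is a target of p53.

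The extended parts together held more matches than the shared parts for every motif searched, at densities per kb of similar size. CTACCTC, the let-7 match, occurred 0.04996 times per kb in the shared and 0.0625 in the extended part. GCACTTT, the miR-17 match, occurred 0.174 and 0.190 times, ACCAAAG, the miR-9 match, 0.0872 and 0.0805 times, and CACTGCC, the miR-34a match, 0.110 and 0.0842 times. A match was found in the extended part and not in the shared part in 11.5% of genes for let-7, 25.3% for miR-17, 14.1% for miR-9 and 14.1% for miR-34a. The AU-rich pentamer ATTTA occurred 2.30 and 2.44 times per kb, the heptamer TATTTAT 0.336 and 0.334 times, and the Pumilio element TGTANATA 0.265 and 0.243 times. For ATTTA, 35.0% of genes had a match only in the extended part, for TATTTAT 32.9% and for the Pumilio element 27.9%. On the opposite strand ATTTA occurred 2.33 and 2.51 times per kb in the shared and the extended part, TATTTAT 0.248 and 0.273 times and the Pumilio element 0.166 and 0.156 times. The let-7 match occurred there 0.0388 and 0.0514 times, the miR-17 match 0.106 and 0.162 times, the miR-9 match 0.107 and 0.103 times and the miR-34a match 0.105 and 0.0940 times. TATTTAT, the Pumilio element and the let-7 and miR-17 matches were thus denser on the transcript strand in both parts, while ATTTA and the miR-9 match were denser on the opposite strand, and the miR-34a match changed order between the parts. A match is only a string of letters, and neither the microRNAs nor their binding was measured.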

How the data were processed

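Poly(A) 3′-seq (QuantSeq REV, in which a read begins where the poly(A) tail was added) was done on 8 libraries. The authors trimmed reads with BBDuk, mapped them with STAR 2.5.1b to GRCh38 with ERCC spike-ins, keeping multimapping reads up to a limit, merged all libraries and called peaks with MACS2 2.1.1 (reads extended to 100 bp, no shift); deepTools 2.5.4 and SAMtools are also in the submitters' processing notes. Duplicate handling and the q threshold are not given in the sources used here. The study's methods then removed peaks before a stretch of 25 A with up to 3 mismatches that had none of 12 hexamers upstream. The deposited list still holds such peaks. Removing them here left 4692 of 4708 genes with tandem sites. The deposited list holds, per peak, the fold enrichment over local background, the −log10 p and −log10 q, and a score that is the −log10 q rescaled. It has no strand and no value per library, so depth per library is unknown, and intervals cover counting error only, with no molecular identifiers in the reads.

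Whole-number pileups were solved from the fold and −log10 p of each peak (tolerance 0.0001). Peaks on main chromosomes were set against the last exon of the longest-span GENCODE release 44 basic transcript, extended by 600 bp, with an overlap of at least 1 bp; 5802 of 19389 coding genes had an opposite-strand gene in the window and were left out. The 3′ end of a peak was its end on the gene's strand. Sequence features were read from GRCh38, and proximal and distal sites of each gene were compared by exact McNemar tests with Benjamini-Hochberg adjustment over 4 features. Python 3.11.15, numpy 2.4.6, pandas 2.3.3, scipy 1.17.1 and pysam 0.24.0 were used. The pileup solution, the calls of the 4 features and the paired test were tried on simulated data, and the other steps were not. A comparison of THZ531 with DMSO by limma had been planned for the case that values per library were given.

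Genes were named by rule: the 8 with the most sites, the 8 with the longest span, the 10 with the highest summed pileup among genes with canonical first and last sites, the 5 highest and 5 lowest pileup ratios among genes with 2 canonical sites, and list genes, with ties by symbol. The ranking by summed pileup left out chromosome 8. Values of single genes within lists were given as examples. A few genes that these rules name are not reported here. The members, lists and rules were chosen with earlier results of these data known.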

Additional observations from a re-analysis of the deposited data

How the results depend on the processing

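Merging peaks within 100 bp changed nothing, since no neighbouring sites lay that close, and is left out of the counts. Over 8 results and the other 14 settings, 74 of 87 values kept their direction and side of the threshold or lay within their interval or 1.5-fold of the count, and 0 reversed. The A-rich difference lost its call under the study's definition, 25 A with up to 3 mismatches (-0.212 points, adjusted p = 0.268), a definition that few sites of either end met. The hexamer difference of 33.4 points kept its call at 16.6 with any of 12 motifs in 100 bp and at 20.1 with peaks that have a PAS motif and no A-rich sequence. Mirror-image windows also held any of the 12 motifs in 54.5% of proximal and 64.1% of distal peaks. The number of genes with tandem sites was 2500 at −log10 q of at least 10 and 2782 with peaks that have a PAS motif and no A-rich sequence, in place of 4708. Both settings use fewer peaks. The median spacing of 792 bp became 820 at −log10 q of at least 5, 930 at 10, 962.5 with motif and no A-rich sequence, 835.5 without the downstream extension and 768 with genes that have an opposite-strand gene kept. The share of genes with the highest pileup at the distal site became 40.7% at −log10 q of at least 10, 46.3% without the extension and 40.03% with both sites at annotated ends, and the share ending in the coding part 2.20% at −log10 q of at least 10 and 0.569% with motif and no A-rich sequence; the cause was not tested. The alternatives with both ends annotated and with genes that share a peak counted once were chosen after seeing the data. The A-rich difference among peaks without A-rich sequence is 0 by construction and was not run. No paired analysis was possible because the list has no column per library, and for the same reason no library could be left out. Sites closer than about 200 bp, the use of each site and its change with THZ531 are beyond what the list resolves.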
